A study of Mus musculus with 18 samples.

Results

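The 7 genes described here encode proteins of the red cell membrane: *Slc4a1*, *Ank1* and *Sptb*, which form the link between the lipid bilayer and the skeleton beneath it, *Rhag* and *Rhd* of the Rh complex, *Kel*, and *Aqp1*. They were chosen by name as proteins of this membrane, with earlier results of these data known, and all 7 were found among the 20066 gene names of the table of differentiation stages and among the 20268 of the table of reprogrammed fibroblasts. The study followed blood formation in mouse embryonic stem cells (ESCs) of strain 129 that carry a GFP reporter in *Brachyury* (Bry). Sorting gave mesoderm (MES, Bry-GFP+ and FLK1-), hemangioblasts (HB, Bry-GFP+ and FLK1+), hematopoietic progenitors (HP, CD41+) and macrophages (MAC, CD11b+), each sequenced in 2 replicates that the authors combined into 1 value. The hemogenic endothelium, which the study places between HB and HP, is not among these samples and was not used, so the comparison of HB with HP spans it. A second experiment, also in strain 129, used mouse embryonic fibroblasts (MEFs) of embryonic day 14.5, untreated (uFIB) or given *Scl* and *Lmo2* (SL), *Scl*, *Fli1*, *Gata2* and *Lmo2* (SFGL) or *Fli1*, *Gata2* and *Lmo2* (FGL), with 1 library per condition at day 12 and at day 21; *Scl* is another name of *Tal1*. The MEFs came either from wild-type embryos or from the iTal1-2A-GFP line, in which doxycycline induces *Tal1*, and the labels do not say which for a given library. By the study's methods they were first depleted of cells bearing blood and endothelial surface markers, received the other factors by lentivirus and were kept in a medium with blood growth factors that included erythropoietin.

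The red cell membrane is a lipid bilayer tied to a mesh of spectrin, which lets the cell bend in capillaries and spring back. Band 3, the product of *Slc4a1*, exchanges chloride for bicarbonate and anchors the mesh through ankyrin-1 (*Ank1*), which binds beta-spectrin (*Sptb*). The Rh-associated glycoprotein (*Rhag*) carries ammonia and holds the Rh protein (*Rhd*) in the membrane, the Kell protein (*Kel*) is a peptidase that is bound to the Xk protein, and aquaporin-1 (*Aqp1*) is a water channel of red cells that is also made in endothelium, kidney and other tissues. Erythroid cells accumulate most of these proteins as they mature, and mutations in several of the genes cause hereditary spherocytosis or other red cell disorders.

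All levels are in FPKM, fragments normalized for transcript length and for the number of aligned reads, which can be compared between genes of 1 sample. With 1 value per stage and 1 library per MEF condition there was no replicate error, so no difference was tested and neighbouring levels cannot be ordered beyond their spread. A gene was called higher or lower where log2(FPKM + 1) differed by at least 1, among genes with at least 1 FPKM in at least 1 sample of the table; this scale understates changes of low genes. FPKM does not hold read numbers, and in the MEF libraries depths estimated from the steps of low values ran from 0.586 to 1.56 times that of uFIB at day 12, but only 14.9% to 19.0% of the low genes shared a step. The sorted stages carried their defining genes, with *Pou5f1* at 383 FPKM in ESC, *T* (Brachyury) at 142 in MES, *Itga2b* (CD41) at 62.5 in HP and *Csf1r* at 234 in MAC. Levels of the factor genes did not all differ as the MEF labels do, also between SL and SFGL, as given with their comparison. In the library labelled FGL at day 12, *Tal1*, which this mix lacks, was at 7.04 FPKM against 0.0414 in uFIB, and in the library labelled FGL at day 21 *Fli1* was at 3.35 FPKM against 3.02 in uFIB although the mix holds it, while *Tal1* was at 0.0705. The results are therefore given for the library labelled FGL on each day separately.

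Start-site sequences were looked up because 6 of the 7 genes moved together in the MEFs, as described further on. RefSeq promoter windows (GRCm38.p6, 250 bases before to 50 bases after the start) held entries for 5 of the 7 genes, *Sptb*, *Rhag*, *Rhd*, *Kel* and *Aqp1*. The 120 bases before the start are shown for the 3 windows that hold a GATA hexamer, AGATAA or TGATAA on either strand, and for *Sptb*, whose window holds none, written 5′ to 3′ in the direction of transcription with each hexamer in capitals.
*Kel*, chr6:41704326-41704445, minus strand: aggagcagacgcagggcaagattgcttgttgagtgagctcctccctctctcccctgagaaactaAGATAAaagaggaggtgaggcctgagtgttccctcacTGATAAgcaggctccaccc
*Rhd*, chr4:134864416-134864535, plus strand: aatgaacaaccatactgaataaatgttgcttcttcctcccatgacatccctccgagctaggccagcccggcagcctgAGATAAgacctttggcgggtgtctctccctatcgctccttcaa
*Rhag*, chr17:40811029-40811148, plus strand: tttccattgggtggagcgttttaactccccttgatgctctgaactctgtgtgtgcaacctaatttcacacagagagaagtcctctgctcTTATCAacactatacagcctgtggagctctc
*Sptb*, chr12:76710548-76710667, minus strand: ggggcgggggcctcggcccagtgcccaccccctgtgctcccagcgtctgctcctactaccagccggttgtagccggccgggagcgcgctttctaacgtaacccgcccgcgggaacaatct
*Kel* has both hexamers, 56 and 19 bases before its start. *Rhd* has AGATAA 43 bases before its start, and *Rhag* has TGATAA on the opposite strand, 31 bases before its start, where it reads TTATCA. Of all 32851 windows of the same length, 11.2% hold AGATAA, 9.05% hold TGATAA and 18.6% hold either. The other motifs searched on both strands were the CACCC-type sequences CCACACCC and CCCCACCC and the E-boxes CAGATG and CAGCTG. *Aqp1* has CCCCACCC 248 bases before its start, a motif of 9.99% of windows, and *Rhd* has CAGCTG 29 bases after its start, a motif of 16.3% of windows. These matches describe the letters only, and binding was not analysed here.

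Band 3, ankyrin-1 and beta-spectrin showed the highest levels of the 7 genes in HP. *Slc4a1* (chromosome 11, 102348820 to 102365281, minus strand, on mm10) was at 0.134 FPKM in ESC, was listed at 0 in MES, had 0.00528 FPKM in HB, reached 12.1 in HP and dropped to 0.0542 in MAC. It was thus near 0 in every stage but HP, where log2(FPKM + 1) was 3.71 higher than in HB, the change of rank 51 among 11983 genes. *Ank1* (chromosome 8, 22974882 to 23150496, plus strand) was at 5.69 FPKM in HP, while ESC had 0.0449, MES 0.0434, HB 0.0158 and MAC 0.166, a difference of 2.72 from HB to HP. It was the only one of the 7 genes with more than 1 start site in the table: of its 2 sites, TSS19252 gave 75.4% of its FPKM in HP and TSS19253 the other 24.6%, while nearly all of the very low signal in MES, HB and MAC came from TSS19253. The miRNA gene *Mir486*, on the same strand, and an antisense gene lie within *Ank1*. Both could share its reads, the antisense gene because the counting is not stated to use strand.

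*Sptb* (chromosome 12, 76580488 to 76710547, minus strand) was present before HP as well. ESC had 0.506 FPKM, MES 2.93, HB 1.11, HP 27.6 and MAC 0.124. It was called higher already in MES than in ESC, by 1.38 on log2(FPKM + 1), was lower by 0.90 in HB than in MES, short of the limit (-1.04 after scaling to the same upper quartile), and was 3.76 higher in HP than in HB, the change of rank 45. *Plekhg3*, a gene on the opposite strand that overlaps *Sptb*, was at 0.909 FPKM in HP, where ESC had 7.47, MES 5.94, HB 3.70 and MAC 1.79; its part in the *Sptb* values was not tested.

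The Rh genes differed from each other in the stages. *Rhag* (chromosome 17, 40811149 to 40840754, plus strand) was at 0.0217 FPKM in ESC, listed at 0 in MES and HB, at 1.495 in HP and at 0.181 in MAC, a difference of 1.32 from HB to HP. *Rhd* (chromosome 4, 134864536 to 134896172, plus strand) went the other way through the early stages, with 2.10 FPKM in ESC and 1.12 in MES, against 0.190 in HB, 0.227 for HP and 0.0856 for MAC. Its highest level was in ESC, it was lower by 0.55 in MES and by a further 0.83 in HB on log2(FPKM + 1), neither past the limit, and it differed by 0.04 between HB and HP. In HP the *Rhag* level was 6.59 times the *Rhd* level, whereas in ESC it was 0.0103 times that level. The relatives made in other tissues, *Rhbg* and *Rhcg*, stayed at or under 0.482 FPKM in all 5 stages.

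*Kel* (chromosome 6, 41686330 to 41704325, minus strand) was at 2.94 FPKM in HP, against 0.00990 for ESC, 0.00698 for MES, 0.0330 for HB and 0.0832 for MAC, a difference of 1.93 from HB to HP. Its partner *Xk* was at 0.807 FPKM in ESC, 0.462 in MES, 0.186 for HB, 3.43 for HP and 0.392 for MAC, so that *Kel* was 0.858 times *Xk* in HP and at most 0.212 times *Xk* in the other stages. *Aqp1* (chromosome 6, 55336299 to 55348555, plus strand) was at 0.0661 FPKM in ESC and 0.0767 in MES, 0.176 FPKM with HB and 0.632 with HP, and was listed at 0 in MAC. HP held its highest level as well, but it did not reach 1 FPKM in any stage and was left out of the calls. Among the aquaporins, *Aqp8* was higher than *Aqp1* in HP, at 6.13 FPKM against 0.216 in HB.

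**Figure D1:**
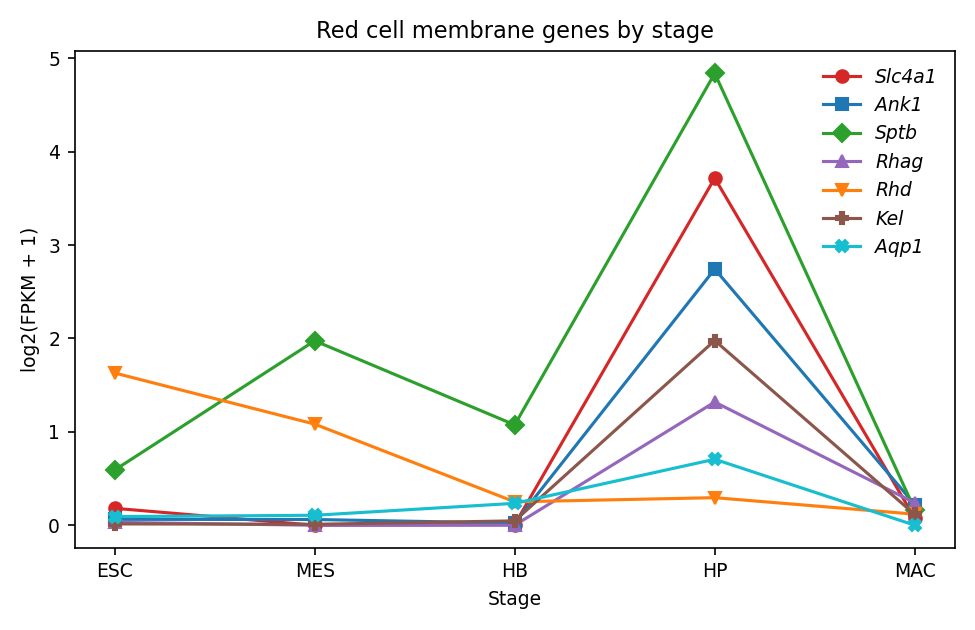
Level of each of the 7 genes, as log2(FPKM + 1) on the vertical axis, in the 5 stages on the horizontal axis; each point is the authors' single value, in which 2 replicates are combined, and lines only join the points of a gene. For 6 genes the highest point is in HP, led by *Sptb* and *Slc4a1*, and *Rhd* starts highest in ESC.

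Among the 5 stages used, 6 of the 7 genes had their highest level in HP and 5 were under 1 FPKM in each of ESC, MES and HB. From HB to HP, 5 of the 6 genes tested were called higher, *Slc4a1*, *Ank1*, *Sptb*, *Rhag* and *Kel*, where 7.77% of the 11983 genes tested were. The median difference of the 7 genes was 1.93, and that of all genes was -0.11; relative to the latter the 5 genes were higher by 1.43 to 3.87. From ESC to MES 1 of 6 was called higher, *Sptb*, beside 6.14% of all genes, and from MES to HB 0 of 6 were, beside 2.15%. From HP to MAC the genes called lower were *Slc4a1*, *Ank1*, *Sptb*, *Rhag* and *Kel*, 5 of 6 where 12.5% of all genes were, and all 7 were under 1 FPKM in MAC. The comparisons of HP with HB and with MAC share the HP value. Values in MAC were higher as a whole, with a median difference of 0.30 from HP over all genes, and relative to it the 5 genes were lower in MAC, with differences between -4.98 and -1.38. Of all genes called between HP and MAC, 70.7% were higher in MAC as deposited and 44.1% after scaling to the same upper quartile, while all 7 genes were lower in MAC on both scales. Genes of other cell types were also high in HP. The summed level of 5 megakaryocyte genes was 91.9 FPKM in HP against 1.57 in HB, that of 5 endothelial genes 51.3 against 7.74, and that of 5 red cell genes other than those of its membrane 6832 against 5.91. Of the megakaryocyte sum in HP, *Itga2b*, the gene of the CD41 used to sort HP, gave 62.5 FPKM, so this sum is not independent of the sort. *Pf4* gave 23.0 FPKM and was at 274 in MAC, and *Gp9*, *Gp1bb* and *Gp6* were at 4.05, 1.54 and 0.776 in HP. All 5 genes of each of these lists were above 0 in HP, and the part of each cell type in the result was not tested. In these bulk samples fewer cells of a type and less RNA per cell cannot be told apart.

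In the MEFs, 6 of the 7 genes were under 0.5 FPKM in both untreated libraries and were called higher in SL and SFGL on both days. *Slc4a1* was at 68.0 FPKM in SL at day 12, with 24.4 in SFGL, 25.8 in FGL and 0.0126 in uFIB, and at day 21 it was at 65.4 in SL and 55.6 in SFGL and listed at 0 in uFIB and FGL. It was the highest of the 6 in each SL and SFGL library and in FGL at day 12. On log2(FPKM + 1) it was 6.09 higher in SL than in uFIB at day 12, rank 75 of 12803 genes, and 6.05 higher at day 21, rank 29. *Slc4a2*, the anion exchanger of most other cells, was at 35.6 FPKM in uFIB and 20.1 in SL at day 12, so that *Slc4a1* was 3.38 times *Slc4a2* in SL; in FGL it was 0.777 times.

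*Ank1* was at 5.26 FPKM in SL at day 12, where uFIB had 0.453, SFGL 2.59 and FGL 2.51, and at 7.55 FPKM in SL at day 21, where uFIB had 0.167, SFGL 4.80 and FGL 0.255. *Sptb* was at 4.71 FPKM in SL at day 12, with uFIB at 0.0589, SFGL at 1.83 and FGL at 2.16, and at 6.06 FPKM in SL at day 21, with uFIB at 0.0636, SFGL at 3.82 and FGL at 0.00911. Both genes were above every uFIB library in all SL and SFGL libraries and in FGL at day 12. *Sptbn1*, the beta-spectrin of most other cells, was 184 FPKM in uFIB and 88.9 in SL at day 12 and so remained 18.9 times *Sptb* in SL, compared with 2.49 times in HP.

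*Rhag* was at 18.2 FPKM in SL at day 12, where uFIB had 0.0517, SFGL 16.9 and FGL 5.19, and at 28.7 FPKM in SL at day 21, where uFIB had 0.344, SFGL 44.5 and FGL 0.220. *Rhd* was at 6.78 FPKM in SL at day 12, with uFIB at 0.0417, SFGL at 3.82 and FGL at 2.28, and at day 21 at 6.94 in SL and 7.92 in SFGL and listed at 0 in uFIB and FGL. *Rhd*, which was lower in HP than in ESC, was therefore 2.90 higher in SL than in uFIB at day 12 and 2.99 higher at day 21. *Rhag* exceeded *Rhd* 2.68 times in SL at day 12, 4.13 times at day 21, and 4.42 and 5.62 times in SFGL. *Kel* was listed at 0 in uFIB on both days and in FGL at day 21, and had 8.16 FPKM in SL at day 12, where SFGL had 6.24 and FGL 2.52, and 10.5 FPKM in SL at day 21, where SFGL had 11.2. *Xk* stood close to it, at 9.04 FPKM in SL at day 12 and 7.17 at day 21.

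*Aqp1* did not share this pattern. It was at 19.3 FPKM in SL at day 12, where uFIB had 10.3, SFGL 7.98 and FGL 6.27, and at 36.7 FPKM in SL at day 21, where uFIB had 43.3, SFGL 24.7 and FGL 36.2. The 2 untreated libraries thus differed from each other more than SL did from uFIB on either day, and no difference from uFIB of the same day passed the limit. It was also the only one of the 7 genes with a level of 1 FPKM or more in uFIB.

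**Figure D2:**
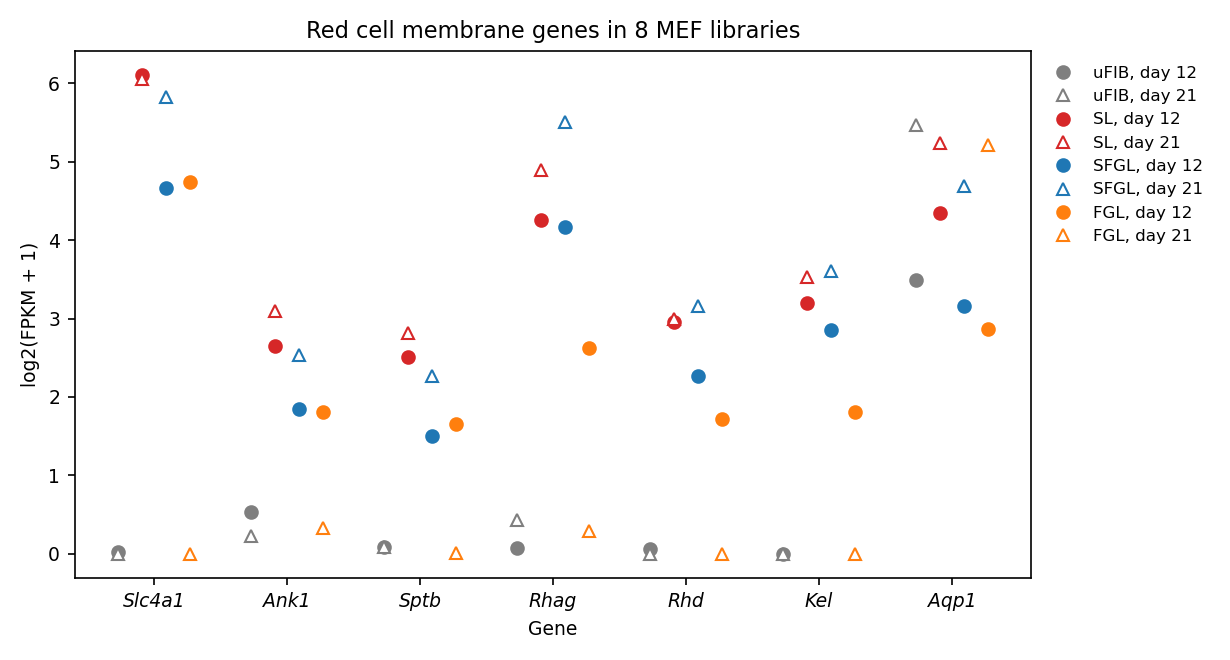
Level of each of the 7 genes, as log2(FPKM + 1) on the vertical axis, in the 8 MEF libraries, with 1 point per library, colours for the treatment, filled circles for day 12 and open triangles for day 21. For 6 genes the SL and SFGL points lie above both uFIB points and the FGL points separate by day, and *Aqp1* is present in all 8 libraries.

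The calls were *Slc4a1*, *Ank1*, *Sptb*, *Rhag*, *Rhd* and *Kel*, 6 of 7 genes, in each comparison of SL or SFGL with uFIB. All genes tested were called higher in 13.6% of cases for SL and 14.1% for SFGL at day 12, and in 11.5% for SL and 13.5% for SFGL at day 21. For these comparisons, which share the uFIB library of the day, the median difference of the 7 genes was 2.90 for SL and 2.21 for SFGL at day 12, and 2.99 for SL and 3.16 for SFGL at day 21, while that of all 12803 genes lay between -0.04 and -0.03. In FGL at day 12 6 of 7 genes were called higher, all but *Aqp1*, where 2.75% of all genes were, and at day 21 0 of 7 were, where 0.437% of all genes were. At day 21, 56.0% of the genes called in FGL were higher as deposited and 44.1% after scaling to the same upper quartile, and the 7 genes had the same directions on both scales. Genes of other cell types differed as well. The summed level of 6 fibroblast genes was 6373 FPKM in uFIB at day 12, with SL at 2193, SFGL at 1806 and FGL at 5170, and 5045 FPKM in uFIB at day 21, with SL at 1100, SFGL at 907 and FGL at 4889. That of 4 megakaryocyte genes was 1.24 FPKM in uFIB at day 12, with SL at 77.7, SFGL at 134.8 and FGL at 13, and 1.91 at day 21, with SL at 88.0, SFGL at 167 and FGL at 0.805, and that of 5 macrophage genes was 3.46 FPKM in uFIB, with SL at 34.2, SFGL at 39.4 and FGL at 5.43 at day 12, and 3.85 with SL at 17.8, SFGL at 25.7 and FGL at 3.78 at day 21. That of 5 endothelial genes was 1.89 FPKM in uFIB, with SL at 17.03, SFGL at 29.1 and FGL at 2.15 at day 12. At day 21 it was 1.16 in uFIB, with SL at 14.4, SFGL at 20.3 and FGL at 1.47. At day 12 *Itga2b* gave 49.7 FPKM of the megakaryocyte sum in SL and 108 in SFGL. *Pecam1* gave 10.5 FPKM of the endothelial sum in SL and 26.4 in SFGL at day 12. It was the only 1 of 4 endothelial genes tested that was called higher in SFGL that day, against 3 in SL. At day 21, 3 of 4 were called higher in both, and *Tek* was lower, short of the limit. The part of these genes of other cell types in the results was not tested.

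SL and SFGL, whose labels differ in *Fli1* and *Gata2*, ranked differently by day. *Fli1* itself was not higher in SFGL, at 41.2 FPKM against 46.7 for SL at day 12 and 27.8 against 34.4 at day 21, and *Gata2* was at 110 FPKM in SFGL and 68.8 in SL at day 12 and at 132 and 62.6 at day 21. In uFIB *Fli1* was at 3.43 FPKM at day 12 and 3.02 at day 21, and *Gata2* at 1.80 and 2.13. The values do not separate a cell's own transcripts from those of an added factor. At day 12 all 6 genes were lower in SFGL than in SL, with ratios from 0.359 for *Slc4a1* to 0.931 for *Rhag* and a median of 0.528. At day 21 the ratios ran from 0.630 for *Sptb* to 1.55 for *Rhag* with a median of 0.956, and 3 of the 6 genes, *Rhag*, *Rhd* and *Kel*, were higher in SFGL. Within SFGL all 6 genes were higher at day 21 than at day 12, by 1.79 times for *Kel* to 2.63 times for *Rhag*. Within SL the same ratio lay between 0.962 for *Slc4a1* and 1.58 for *Rhag*. As a background, 396 genes were under 0.5 FPKM in both uFIB libraries and called higher in SL on both days, the 6 genes among them. Their median ratio of SFGL to SL was 0.965 at day 12 and 1.17 at day 21, and the median ratio of day 21 to day 12 was 0.823 in SFGL and 0.672 in SL. Only 40.7% of them were higher at day 21 in SFGL, where 6 of 6 membrane genes were. Each ratio compares single libraries, and *Tal1* itself differed between them, at 62.0 FPKM in SL and 58.0 FPKM with SFGL at day 12, and at 347 FPKM in SL against 119 with SFGL at day 21.

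The library labelled FGL at day 12 held the 6 genes at a larger share of their SL level than most genes that were called higher in SL from a low start. FGL reached 38.0% of SL for *Slc4a1*, 47.8% for *Ank1*, 45.9% for *Sptb*, 28.6% for *Rhag*, 33.6% for *Rhd* and 30.9% for *Kel*, with a median of 35.8%. Over the 396 background genes, which were chosen for being high in SL, the median was 11.6% with quartiles of 8.96% and 17.4%, and 40 of them, the 6 included, were at or above the share of *Rhag*. The regulators of the fixed list ranged more widely. *Tal1* stood at 11.3%, *Nfe2* at 11.6%, *Lyl1* at 8.99%, *Gata1* at 18.5%, *Klf1* at 22.0% and *Gfi1b* at 23.9%, while *Zfpm1* (FOG1) stood at 38.7% and *Epor*, the erythropoietin receptor, at 32.6%. Above the range of the 6 genes were *Lmo2*, which the label gives to both mixes, at 63.4%, *Ldb1* at 114% and the red cell marker *Slc25a37* (mitoferrin) at 51.1%. Unlike the 6 genes, *Zfpm1*, *Slc25a37* and *Ldb1* were not low in uFIB, and their shares include that starting level. They were at 8.45, 10.8 and 59.4 FPKM in uFIB and at 37.1, 44.8 and 54.9 in SL at day 12. *Alas2*, the first enzyme of heme synthesis in red cells, stood at 39.1%, and the embryonic globins *Hbb-bh1*, *Hba-x* and *Hbb-y* at 18.3%, 26.4% and 27.6%. Set against SFGL in place of SL, the FGL level was 106% for *Slc4a1*, 118% for *Sptb* and 97.2% for *Ank1*, but 30.7% for *Rhag*, 40.3% for *Kel* and 59.6% for *Rhd*. At day 21 the FGL library held none of the 6 at 1 FPKM or more, as for all but 1 of the 396 genes (0.253%), and its *Gata1* was listed at 0.

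**Figure D3:**
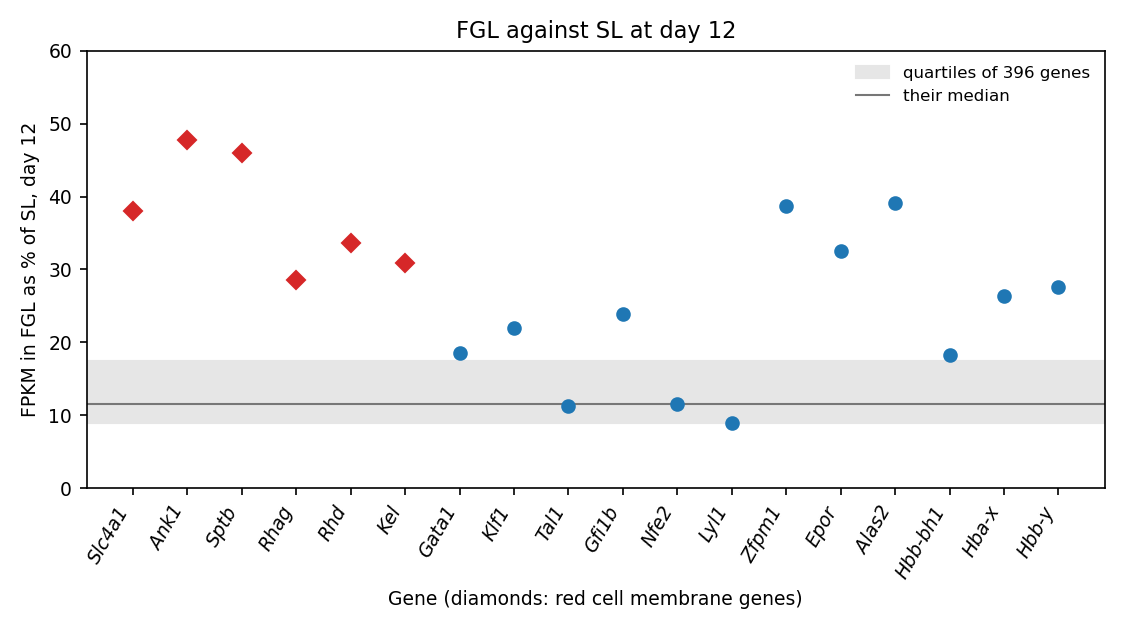
FPKM in the library labelled FGL as a percentage of FPKM in SL at day 12, for the 6 membrane genes (red diamonds) and for regulators, *Alas2* and embryonic globins (blue circles), with 1 library each. The grey band spans the quartiles, 8.96% to 17.4%, and the grey line marks the median, 11.6%, of 396 genes low in uFIB and called higher in SL. The 6 membrane genes lie between 28.6% and 47.8%, and *Zfpm1* was already at 8.45 FPKM in uFIB at day 12. *Lmo2* at 63.4%, *Ldb1* at 114% and *Slc25a37* at 51.1% lie above the 6 genes and are not drawn.

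The proportions of the 6 genes to each other differed between HP and the MEFs. In HP *Sptb* made up 55.1% of their summed FPKM of 50.1, *Slc4a1* 24.2%, *Ank1* 11.4%, *Kel* 5.86%, *Rhag* 2.98% and *Rhd* 0.453%. In SL at day 12 *Slc4a1* made up 61.2% of a sum of 111, *Rhag* 16.4%, *Kel* 7.34%, *Rhd* 6.11%, *Ank1* 4.73% and *Sptb* 4.24%. *Sptb* was therefore the highest in HP and the lowest of the 6 in each SL and SFGL library and in FGL at day 12. The ratio of *Slc4a1* to *Sptb* was 0.440 in HP and lay between 10.8 and 14.6 in these 5 libraries, and that of *Slc4a1* to *Ank1* was 2.13 in HP and between 8.66 and 12.9. Ratios within a sample do not depend on its depth, but the stage values were estimated per start site and those of the MEFs per gene, in separate runs, and the part of this difference was not tested.

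**Figure D4:**
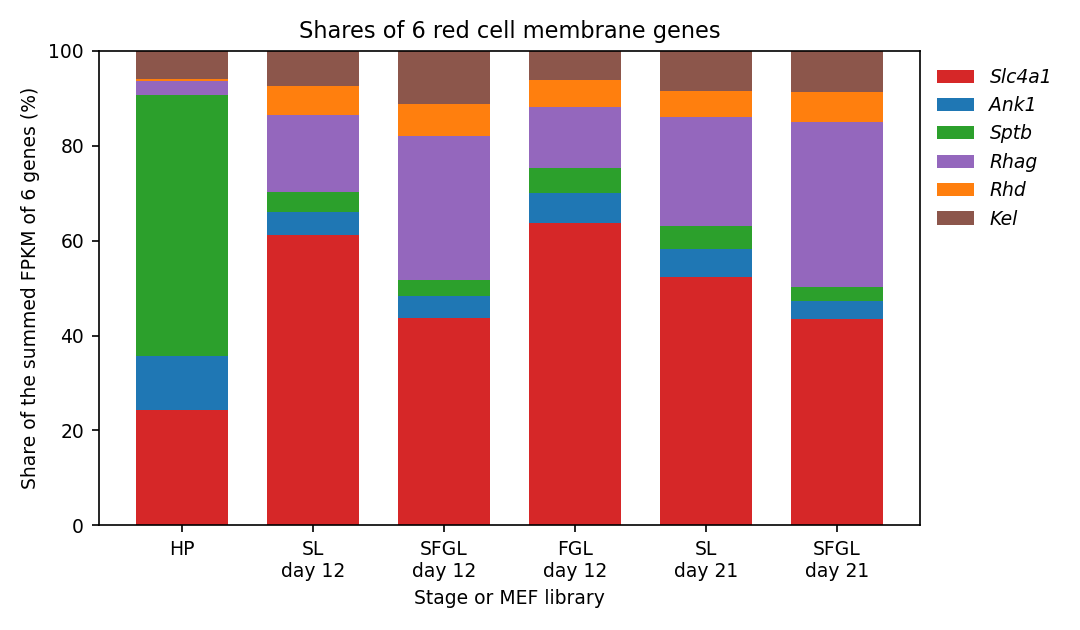
Share of each of the 6 genes in their summed FPKM, in percent on the vertical axis, in HP and in the 5 MEF libraries in which they were called higher. *Sptb* takes 55.1% in HP, and *Slc4a1* takes between 43.5% and 63.8% in the MEF libraries.

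A wider list of 41 other genes of the red cell membrane and its skeleton, all matched in both tables, some of them by an older name, was set beside the 7 genes. From HB to HP 17 of the 38 tested were called higher and 2 lower, beside 7.77% and 7.71% of all genes, and the median difference of the 41 was 0.71. The 17 included the skeleton genes *Epb41* (protein 4.1, from 11.4 to 67.4 FPKM), *Epb42* (protein 4.2, from 0.128 to 9.29), *Add2* (from 0.474 to 5.74) and *Tmod1* (from 0.341 to 8.99), the glycophorin gene *Gypc* (from 5.05 to 36.2), and the blood group genes *Ermap*, *Xk*, *Icam4*, *Slc14a1* (Kidd) and *Art4* (Dombrock). *Art4* went from 0.386 FPKM in HB to 16.0 in HP. From HP to MAC 18 were called lower and 9 higher, beside 12.5% and 30.2% of all genes. Of the 17 genes called higher in HP, 13 were called lower in MAC and 3 were called higher again. These 3 were *Stom* (from 4.51 FPKM in HP to 91.5 in MAC), *Cd44* (from 20.0 to 93.0) and *Cd47* (from 18.6 to 61.3).

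In SL, 21 of 40 were called higher at day 12 and 19 at day 21, with 2 lower on each day, beside 13.6% and 11.5% of all genes higher and 13% and 11.9% lower, and the median difference of the 41 was 1.11 and 0.83. In SFGL the counts were 18 and 19 higher, with 2 lower at day 12 and 1 at day 21, beside 14.1% and 13.5% of all genes higher and 16.3% and 15.4% lower. In FGL 9 were called higher at day 12, among them *Epb41*, *Epb42*, *Add2*, *Ermap*, *Xk*, *Tfrc* and *Tspo2*, and 0 were at day 21, beside 2.75% and 0.437% of all genes. Of the 17 genes called higher in HP, 12 (70.6%) were also called higher in SL on both days, and these were 66.7% of the 18 called there. Of the 389 genes in the stage table that were under 0.5 FPKM in both uFIB libraries and called higher in SL on both days, 35.7% were called higher in HP. That share stands beside the 66.7% only, and the wider list was not limited to low starting levels. For the 70.6%, the share over all genes called higher in HP was not computed. The other 5 HP genes, not called higher in SL on both days, were *Tmod1*, *Gypc*, *Stom*, *Cd44* and *Trim58*. Of these, *Stom*, *Cd44* and *Trim58* were called higher in SL at day 12 alone. *Gypc* was higher in SL by 0.47 at day 12 and by 0.95 at day 21, short of the limit. *Tmod1*, which caps actin filaments, was at 2.68 FPKM in uFIB and 2.51 in SL at day 12, and was called lower in SL at day 21, at 2.53 FPKM against 6.14. The 6 genes called higher in SL on both days and not in HP were *Mpp1*, *Slc2a1*, *Cd55*, *Tfrc*, *Aqp9* and *Tspo2*, the last of which was not tested in the stages. *Tspo2*, a cholesterol-binding protein of red cell precursors, was listed at 0 in all 5 stages and in uFIB on both days and was at 8.97 FPKM in SL at day 12, with SFGL at 5.95 and FGL at 2.28. Not all skeleton genes were higher. *Dmtn* (dematin) had its highest stage level in ESC, at 10.3 FPKM, with 0.959 in HB and 2.81 in HP, and stood at 1.58 FPKM in SL against 1.66 in uFIB at day 12. *Tpm1* (tropomyosin) was also highest in ESC, at 253 FPKM, and was called lower in SL at day 12, at 165 FPKM against 408 in uFIB.

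**Figure D5:**
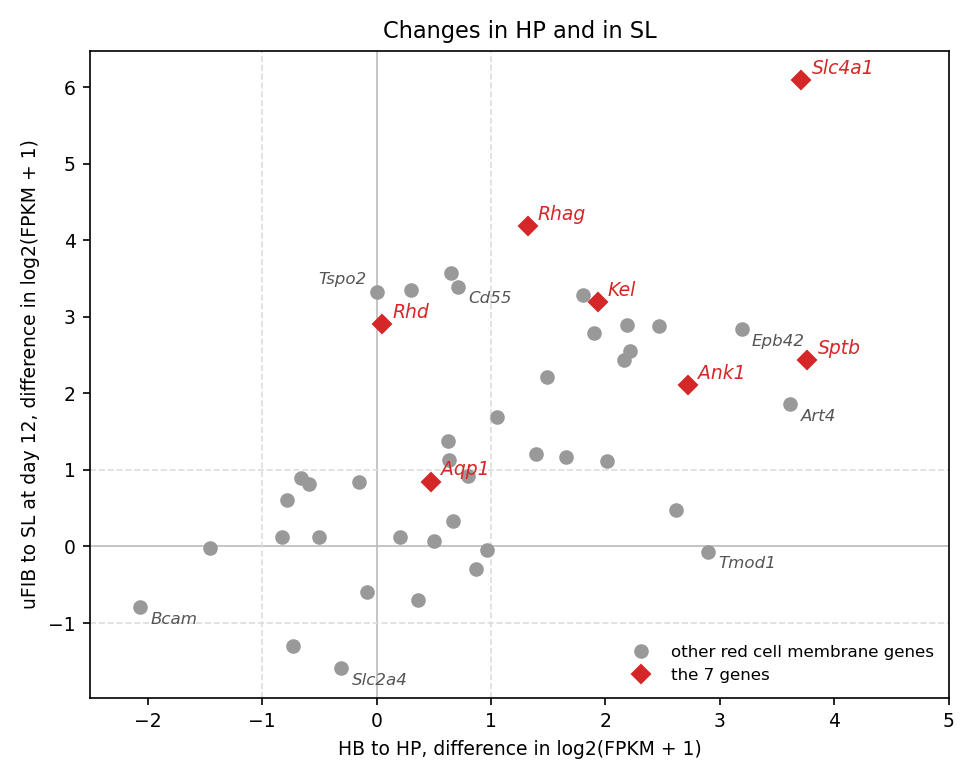
Difference in log2(FPKM + 1) from HB to HP on the horizontal axis and from uFIB to SL at day 12 on the vertical axis, for the 7 genes (red diamonds) and other red cell membrane genes (grey circles); dashed lines mark the call limit of 1. *Slc4a1* lies farthest up, at 3.71 and 6.09, and *Rhd* and *Tspo2* lie high on the vertical axis with differences of 0.04 and 0 from HB to HP.

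Relatives of the 7 genes from the same protein families were described from a list of 24, 16 of which were tested in each table; *Aqp3* and *Aqp9* stand in this list and in the wider membrane list. From HB to HP 2 were called higher and 1 lower, beside 7.77% and 7.71% of all genes. The 2 were *Ank3*, with 1.41 FPKM in HB, 8.02 in HP and 0.0493 in MAC, and *Aqp8*, with 0.0335 in MAC, and both were called lower in MAC. In SL at day 12, 1 was called higher, *Aqp9*, and 6 lower, among them the ankyrins *Ank2*, from 8.60 FPKM in uFIB to 2.39 in SL, and *Ank3*, from 6.06 to 2.12, and the spectrin *Sptbn1*, beside 13.6% of all genes higher and 13% lower. At day 21, 2 were called higher in SL, *Aqp3* and *Aqp9*, and 5 lower, beside 11.5% and 11.9% of all genes. For SFGL 1 was called higher and 10 lower at day 12, beside 14.1% and 16.3% of all genes. At day 21 these counts were 2 and 9, beside 13.5% and 15.4%. In FGL 0 of 16 were called on either day, where 2.75% of all genes were higher and 0.281% lower at day 12 and 0.437% and 0.344% at day 21.

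Genes with the most similar profiles were sought over the 13 values of both tables among 10997 genes, as the smallest distance between centred log2(FPKM + 1) values, and share the libraries and their depth. *Kel* had the closest partners, *Ermap*, the Scianna blood group gene, at a distance of 0.44 and *Hemgn* (hemogen) at 0.77. *Alas2* was among the closest to *Slc4a1*, at 1.45. *Ank1* was closest to *Trim10* at 1.17 and the globin gene *Hbq1b* at 1.23, and *Sptb* to *Trim10* at 1.49 and *Epb42* at 1.80. *Trim10* was at 12.0 FPKM in HP, 0.0411 in HB, 5.51 in SL at day 12 and 3.97 at day 21. *Rhag* was closest to *Nrgn* at 1.51 and *Ermap* at 1.68. The partners of *Rhd* were *Atp1b2*, a subunit of the sodium pump, at 1.47 and *F11r*, a junctional adhesion molecule, at 1.68. *Atp1b2* was at 1.42 FPKM in ESC and 0.280 in HP, and at 6.56 in uFIB and 20.6 in SL at day 12. *Aqp1* was closest to *Gm13889* at 1.56 and *Nkain4* at 1.76, and neither was called higher in SL at day 12.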

How the data were processed

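Expression of 7 named genes was taken from 2 tables of RNA-seq values in FPKM, as the authors deposited them. Per the study's methods the authors aligned colour-space reads to mm10 with SHRiMP, kept unique reads, removed duplicates and ran Cufflinks with RefSeq genes; the submitters' notes name TopHat, Bowtie and Cufflinks, and versions are not given in the sources used here. Removing duplicates limits high values. In the stage table the authors combined the replicates, and values per start site were summed here by gene name. The column of 1 further stage, the hemogenic endothelium, belongs to no sample of this series and was not used. The tables were normalized separately, and differences and calls were taken within a table only. Ratios and shares of genes within a sample were set beside each other across both, and near profiles used values centred within each. No test was run, also not a model of treatment and day over the MEF libraries, and calls used a 2-fold limit on log2(FPKM + 1) and at least 1 FPKM in at least 1 sample. The members and lists were chosen with earlier results of these data known. Genes named were the 7, the fixed lists of membrane genes, relatives, regulators and markers, and the 2 genes nearest to each member by Euclidean distance of centred values; *Plekhg3* was added as an overlapping gene. Some genes of the lists are counted but not reported here by name. Of the red cell marker list, *Ahsp* was not matched. Positions are those of the authors' table, counted from 1, with strands from GENCODE M21. Call counting and the search for near profiles were tried on simulated data without noise. That checks the code only and does not show how calls behave at low levels or between single libraries. Alternatives were other pseudocounts, limits, scalings, start sites and references. Values were computed in pandas 2.3.3 with NumPy 2.4.6 under Python 3.11.15 and drawn with matplotlib 3.10.9.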

Additional observations from a re-analysis of the deposited data

Results flagged for a closer look

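For 3 genes the change against uFIB had opposite signs at the 2 days, each from 1 library per day, and the difference between days was not tested. *Aqp1* in SL was 0.8461 higher than uFIB on log2(FPKM + 1) at day 12 and differed by -0.2339 at day 21. *Sptb* in the library labelled FGL was 1.5781 higher than uFIB at day 12 and differed by -0.0759 at day 21. *Rhag* in the library labelled FGL was 2.5567 higher at day 12 and differed by -0.1389 at day 21. The day 21 differences of *Sptb* and *Rhag* are between levels under 0.5 FPKM.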

How the results depend on the processing

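Each count of called genes was recomputed under the other pseudocounts, limits, scalings, start sites and references. Of 56 alternative values for the 8 counts above 0, 50 stayed within 1.5 times the reported count and 6 did not. With a 4-fold limit the count from ESC to MES fell from 1 to 0, that from HB to HP from 5 to 3, that of genes lower in MAC than in HP from 5 to 3, and that in FGL at day 12 from 6 to 2. With a minimum of 5 FPKM 3 genes were counted higher in HP and 3 lower in MAC, because fewer genes were tested. In SL and SFGL the counts of higher genes stayed within 1.5 times on both days. Counts of 0 moved as well: with a pseudocount of 0.001, 2 genes were higher and 3 lower in HB than in MES, 2 lower in MES than in ESC and 1 lower in FGL at day 21; with 0.1, 2 were lower in HB and 1 in MES; with the same upper quartile 1 was lower in HB; and against the mean of both uFIB 1 was lower in SFGL and 1 in FGL at day 12. Scaling to the same upper quartile turned no direction of a member in any of the 10 comparisons. No paired analysis was possible because no count comes from a test and the deposited values combine the replicates of a stage. Without replicate values or read numbers, the precision of single levels under 1 FPKM is unknown.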
